A study of Mus musculus with 6 samples.

Results

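The core of the Ras-ERK cascade was followed through 7 genes in sorted optic nerve microglia: Sos1, Nras, Araf, Braf, Map2k1, Map2k2 and Mapk3. They were chosen by symbol from a list of core cascade genes, by a rule that uses no level but was written with earlier results of these data known, and are 7 of the 37447 genes in the deposited table. Each symbol has a single row. The RNA came from microglia, the macrophages that live in the brain and optic nerve, taken by flow sorting from the optic nerve of C57BL/6 mice aged 3 months, in a study of optic glioma. In the FMC group (4 libraries, FMC 1 and FMC 4 from females, FMC 2 and FMC 3 from males) the mice carried Nf1 flox/mut together with GFAP-Cre, a recombinase under a promoter active in astroglial cells. In the FM group (2 libraries, FM 1 from a male and FM 2 from a female) the mice carried Nf1 flox/mut without Cre. Every animal, controls included, therefore has 1 floxed and 1 mutant Nf1 allele, so no library comes from mice with both Nf1 alleles intact. The promoter drives Cre in astroglial cells and not in microglia. The labels call the libraries biological replicates and do not say how many animals went into each.

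In this cascade an active receptor brings the exchange factor Sos1 to the membrane, where it loads Ras proteins with GTP. GTP-bound Ras recruits Raf kinases, which phosphorylate the MEK kinases, which in turn phosphorylate the ERK kinases. Nf1, the gene mutated in neurofibromatosis type 1, encodes neurofibromin, a GTPase-activating protein that returns Ras to its inactive GDP-bound form. In microglia the cascade acts downstream of receptors such as that for the growth factor Csf1. All of these steps are switched by phosphorylation or nucleotide binding, which transcript levels do not measure.

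No core gene passed the test between genotypes. Araf, 1 of the Raf kinase genes, was higher in all 4 FMC libraries than in both FM libraries, and Map2k1, which encodes the kinase MEK1, was lower in all 4. The other 5 genes overlapped between the groups. Mapk3, which encodes ERK1, had nearly equal group means, at 73.1 ± 20.0 FPKM in FMC (SD, n = 4) and 77.0 ± 25.5 FPKM in FM (SD, n = 2). FPKM divides the fragments of a gene by its transcript length and by the number mapped in that library. That puts different genes on a common scale, but the effects of RNA amplification and of overlapping gene models on such comparisons were not tested.

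The regions upstream of the genes are shown for both Raf genes and both MEK genes, since these are the pairs of paralogs compared within each library. RefSeq windows were found for 6 of the 7 genes. Each line gives the 250 bases before the annotated start, 5′ to 3′ on the strand of the gene, in the RefSeq build GRCm38.p6. The stretch for Araf lies at chrX:20848293-20848542 on the plus strand, for Braf at chr6:39725464-39725713 on the minus strand, for Map2k1 at chr9:64253606-64253855 on the minus strand and for Map2k2 at chr10:81105665-81105914 on the plus strand. Capitals mark matches on either strand to the GC box GGGCGG, the CCAAT box CCAAT and the cyclic AMP response element TGACGTCA.
Araf: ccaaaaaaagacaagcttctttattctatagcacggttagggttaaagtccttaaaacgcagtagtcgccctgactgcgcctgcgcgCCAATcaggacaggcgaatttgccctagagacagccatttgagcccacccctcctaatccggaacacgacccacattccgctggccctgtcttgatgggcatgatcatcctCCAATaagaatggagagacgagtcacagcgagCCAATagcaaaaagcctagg
Braf: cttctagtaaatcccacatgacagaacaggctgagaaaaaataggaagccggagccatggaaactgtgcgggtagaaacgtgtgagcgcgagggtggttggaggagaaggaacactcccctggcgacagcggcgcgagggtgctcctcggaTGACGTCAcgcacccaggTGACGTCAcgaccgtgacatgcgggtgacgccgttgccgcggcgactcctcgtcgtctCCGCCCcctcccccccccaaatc
Map2k1: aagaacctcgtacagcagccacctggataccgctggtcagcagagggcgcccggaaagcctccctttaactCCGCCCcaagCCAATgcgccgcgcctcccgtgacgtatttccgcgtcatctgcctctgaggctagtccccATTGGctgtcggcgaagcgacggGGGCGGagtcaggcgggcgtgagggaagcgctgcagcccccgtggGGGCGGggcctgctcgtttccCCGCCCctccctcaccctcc
Map2k2: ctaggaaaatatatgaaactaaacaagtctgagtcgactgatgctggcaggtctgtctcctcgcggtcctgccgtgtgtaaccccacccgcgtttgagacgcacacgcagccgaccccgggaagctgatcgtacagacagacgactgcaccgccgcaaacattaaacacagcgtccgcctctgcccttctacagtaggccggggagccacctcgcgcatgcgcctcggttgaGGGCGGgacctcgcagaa

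The Araf window held 3 CCAAT boxes and no GC box, while the Map2k1 window held 2 CCAAT boxes and 4 GC boxes. Braf held 2 copies of the cyclic AMP response element and 1 GC box, and Map2k2 held 1 GC box. Among the 32851 RefSeq windows of the same length searched, 32.7% held a GC box, 33.8% a CCAAT box and 1.55% the cyclic AMP response element. The letters TATAAA were in none of the 6 windows and in 12.4% of all. All 6 windows had more CG dinucleotides than the median of 6 over all windows, with 12 in Araf, 14 in Nras, 22 in Sos1, 23 in Map2k2 and 24 in Braf and in Map2k1. No marked motif overlapped another in the 4 stretches. These matches describe the letters only and were not linked to expression here.

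All 10 microglial markers reached 1 FPKM in every library, and their summed level was 2946 to 4494 FPKM in FMC and 2961 to 5390 FPKM in FM. Of 6 astrocyte markers, summed to 119 to 122 FPKM in FMC and 117 and 144 FPKM in FM, Slc1a3 made up most at 104 to 120 FPKM in FMC and 108 and 130 FPKM in FM. Gfap, the defining one, was at 0.22 to 0.31 FPKM in FMC and at 0.18 and 3.06 FPKM in FM. FMC 1 had the highest summed level of T cell, B cell, neutrophil, oligodendrocyte and fibroblast markers, with 6 markers in each list. Neutrophil markers summed to 65.8 to 483 FPKM in FMC and to 339 and 46.1 FPKM in FM 1 and FM 2. B cell markers summed to 23.3 to 129 FPKM in FMC and to 37.8 and 118 FPKM in FM. Oligodendrocyte markers summed to 24.5 to 45.5 FPKM in FMC and to 16.0 and 33.6 FPKM in FM, and endothelial markers to 15.0 to 30.2 FPKM in FMC and to 19.2 and 17.8 FPKM in FM. The summed level of 6 T cell markers was 23.3 to 218 FPKM in FMC, with FMC 1 highest, and 20.5 and 29.4 FPKM in FM. That of 6 fibroblast and mural markers was 102 FPKM in FMC 1, 7.21 to 13.1 FPKM in the other FMC libraries and 19.1 and 26.6 FPKM in FM. That of 6 erythroid markers was 23.6 to 32.7 FPKM in FMC and 128 and 158 FPKM in FM. Read totals were not used here. The steps of low FPKM values gave a commonest depth of 1.17 (FM 1) to 2.16 (FMC 4) times that of FMC 2, but each library had a second mode a factor of about 2 away, so the libraries could not be ordered by depth.

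**Figure D1:**
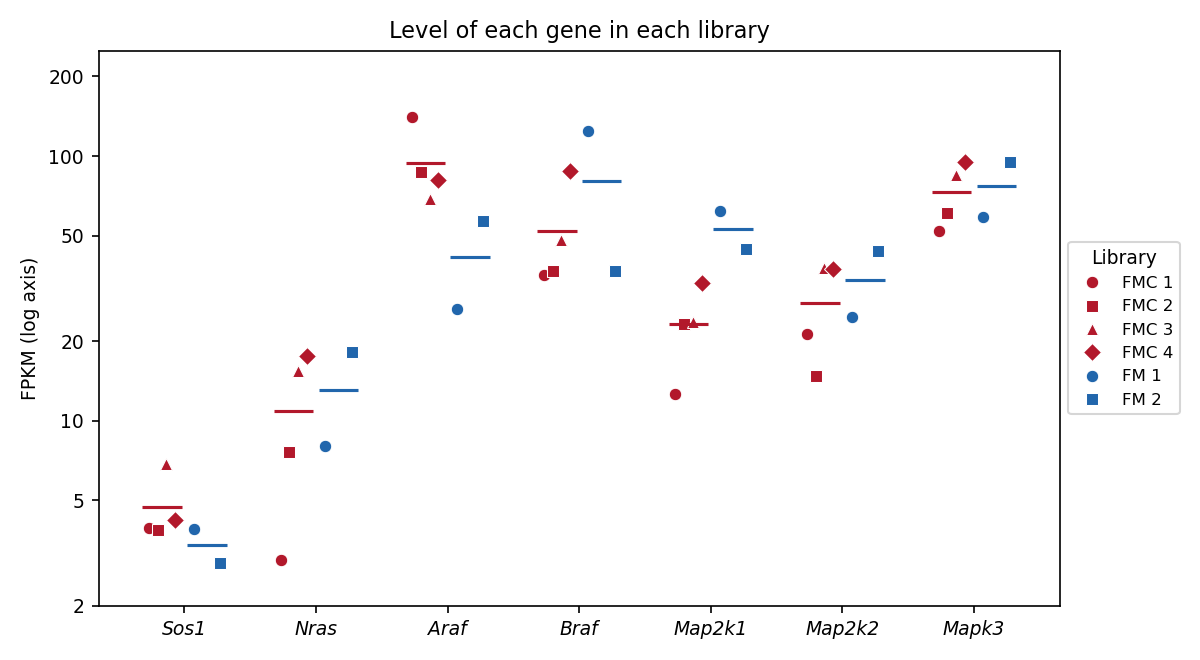
FPKM of the 7 core genes in each library on a log axis, FMC in red to the left of FM in blue, with a bar at each group mean. The 4 FMC points lie above both FM points for Araf and below both for Map2k1, and the points of the groups overlap for the other 5 genes.

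Sos1 encodes the exchange factor that activates Ras and was the lowest of the 7 genes on average, at 4.28 FPKM over the 6 libraries. Positions here and below are in mm9, and Sos1 is on chromosome 17 at 80793092 to 80879793 (ENSMUSG00000024241). Its level was 3.94, 3.85, 6.84 and 4.22 FPKM in FMC 1 to FMC 4, against 3.91 and 2.90 FPKM in FM 1 and FM 2. FMC 3 stood above the rest, FM 2 was lowest, and the groups overlapped. The means were 4.71 ± 1.43 FPKM in FMC (SD, n = 4) and 3.41 ± 0.72 FPKM in FM (SD, n = 2). FMC minus FM came to 0.35 ± 0.71 (SE) as log2(FPKM + 1), which did not pass the threshold of 0.05 (limma, adjusted p = 0.999). That scale understates the change of a gene this low.

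Nras encodes a small GTPase, the Ras protein itself in this set (chromosome 3, 102862152 to 102871837, ENSMUSG00000027852). It was at 2.96, 7.63, 15.4 and 17.5 FPKM in FMC 1 to FMC 4, against 8.01 and 18.1 FPKM in FM 1 and FM 2. FMC 1 was the lowest library and FM 2 the highest. The FMC values spanned the FM values, so the groups overlapped. Nras varied more between libraries than any other core gene, 6.11-fold from lowest to highest, and its residual SD of 0.96 (log2) was the only one of the 7 above the median of 0.84 over all genes tested. Its means were 10.9 ± 6.8 FPKM in FMC (SD, n = 4) and 13.1 ± 7.1 FPKM in FM (SD, n = 2), and FMC minus FM was -0.38 ± 0.78 on the log2 scale (SE; limma, adjusted p = 0.999). The sign turned to 0.07 without FMC 1 and to 0.16 without FM 2.

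Araf, a Raf kinase gene on the X chromosome (20374940 to 20437645, ENSMUSG00000001127), was at 140.4, 86.9, 69.0 and 81.1 FPKM in FMC 1 to FMC 4, against 26.4 and 57.0 FPKM in FM 1 and FM 2. FMC 1 was highest, FM 1 lowest, and the closest values across the groups were those of FMC 3 and FM 2. The means were 94.3 ± 31.6 FPKM in FMC (SD, n = 4) and 41.7 ± 21.6 FPKM in FM (SD, n = 2). The log2 difference was 1.21 ± 0.51 (SE), a fold of 2.31 with a 95% interval of 0.06 to 2.36 on the log2 scale. Its unadjusted p was 0.0418 and did not survive adjustment (limma, adjusted p = 0.887). The log2 difference was 0.67 without FM 1 and 1.75 without FM 2. The library with the highest Araf, FMC 1, is also the one with the highest T cell, B cell, neutrophil, oligodendrocyte and fibroblast marker levels. Without it the difference was 1.00. The part of those cells in the difference was not tested. In the pairs of libraries with title dates a day apart the difference was 1.68 for FMC 2 minus FM 1 and 0.27 for FMC 3 minus FM 2, the second pair also differing in sex.

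The span given for Araf also covers 3 short gene models, each listed at 0 in all libraries, and 9 bases of the neuronal gene Syn1, which was at 0 to 0.74 FPKM in FMC and 0.13 and 0.18 FPKM in FM.

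Braf encodes the other Raf kinase of the set (chromosome 6, 39553236 to 39675462, ENSMUSG00000002413). It was at 35.5, 36.6, 48.1 and 87.9 FPKM in FMC 1 to FMC 4, against 124 and 36.8 FPKM in FM 1 and FM 2. The FM libraries held the highest value and one of the lowest, and the groups overlapped. The means were 52.0 ± 24.6 FPKM in FMC (SD, n = 4) and 80.6 ± 62.0 FPKM in FM (SD, n = 2). The log2 difference was -0.48 ± 0.62 (SE; limma, adjusted p = 0.999). FM 1 decided its sign, since the difference was 0.39 without that library. The locus shares 146 bases with the respiratory chain gene Ndufb2, which was at 5.04 to 24.1 FPKM in FMC and 3.23 and 21.3 FPKM in FM, and FM 1 was lowest for Ndufb2. It also contains the ferritin pseudogene Fth-ps2. The sources used here do not say whether the strand was used in counting, so reads from such overlaps cannot be told apart.

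Map2k1 encodes MEK1, the kinase that phosphorylates ERK (chromosome 9, 64033577 to 64101438, ENSMUSG00000004936). It was at 12.7, 23.1, 23.7 and 33.0 FPKM in FMC 1 to FMC 4, against 61.8 and 44.6 FPKM in FM 1 and FM 2. Every FMC library lay below both FM libraries, and the nearest values were those of FMC 4 and FM 2. The means were 23.1 ± 8.3 FPKM in FMC (SD, n = 4) and 53.2 ± 12.2 FPKM in FM (SD, n = 2). The log2 difference was -1.22 ± 0.52 (SE), which is 2.33-fold lower in FMC, with a 95% interval of -2.40 to -0.04. Its unadjusted p was 0.0442 and its adjusted p 0.895 (limma). With 1 library left out the difference ran from -1.45 without FM 2 to -0.97 without FMC 1, the library with the lowest Map2k1. In the pairs with title dates a day apart it was -1.38 for FMC 2 minus FM 1 and -0.88 for FMC 3 minus FM 2. FMC 3 and FM 2 also differ in sex. The Map2k1 locus contains the ubiquitin hydrolase gene Uchl4, which was at 9.93 to 27.5 FPKM in FMC and 9.31 and 16.2 FPKM in FM.

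Map2k2 encodes MEK2, the second MEK kinase (chromosome 10, 80568660 to 80587442, ENSMUSG00000035027). It was at 21.2, 14.7, 37.8 and 37.5 FPKM in FMC 1 to FMC 4, against 24.6 and 43.6 FPKM in FM 1 and FM 2. The FMC libraries fell on both sides of FM 1, and FM 2 was highest. The means were 27.8 ± 11.7 FPKM in FMC (SD, n = 4) and 34.1 ± 13.4 FPKM in FM (SD, n = 2), and FMC minus FM was -0.33 ± 0.57 on the log2 scale (SE; limma, adjusted p = 0.999). Without FM 2 the difference was 0.07.

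Mapk3, the ERK1 gene (chromosome 7, 133903115 to 133909333, ENSMUSG00000063065), was at 52.0, 61.1, 84.6 and 94.9 FPKM in FMC 1 to FMC 4, against 59.0 and 94.999 FPKM in FM 1 and FM 2. Its fold between the lowest library, FMC 1, and the highest, FM 2, was the smallest of the 7, at 1.83, while its residual SD of 0.42 (log2) was the second smallest, after 0.31 for Sos1. The groups overlapped almost completely. The log2 difference was -0.07 ± 0.47 (SE; limma, adjusted p = 0.999), with a 95% interval of -1.13 to 0.99. The interval gives the differences compatible with these libraries, and not the smallest change that they could detect. The sign of a difference this small depended on the scaling, and it was 0.078 after median ratio scaling.

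**Figure D2:**
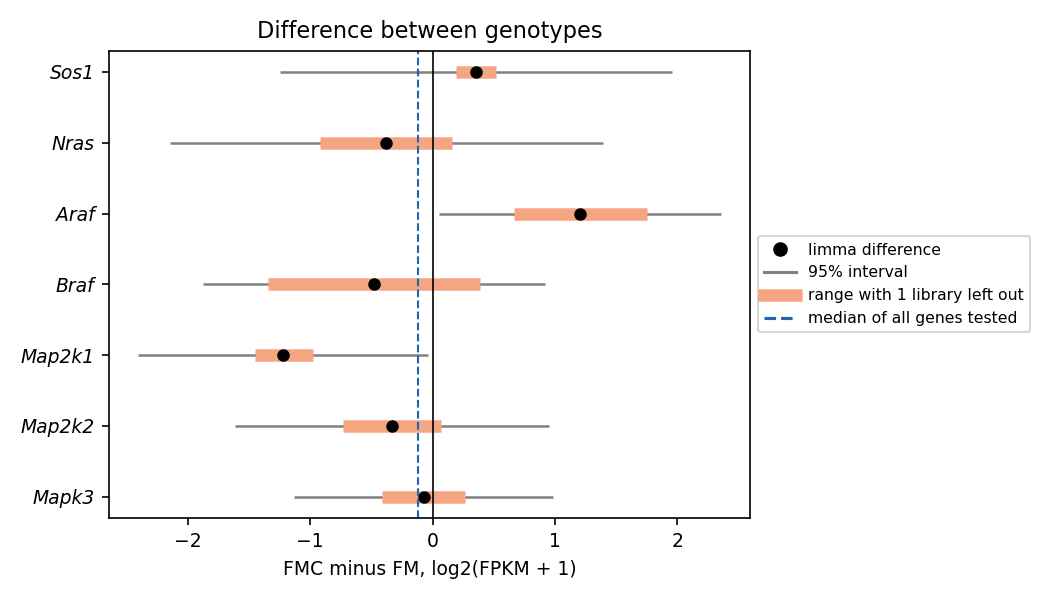
Difference between FMC and FM for each core gene on the log2(FPKM + 1) scale, with the 95% interval of the limma fit, the range when 1 library at a time is left out, and the median of all genes tested as a dashed line. The left-out ranges of Sos1, Araf and Map2k1 stay on 1 side of 0, and those of Nras, Braf, Map2k2 and Mapk3 cross it. For Araf and Map2k1 this follows from groups that do not overlap.

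Over the 7 genes, 2 differences were above 0 and 5 below, with a median of -0.33. Over all 18208 genes tested 43.5% were above 0 and 56.5% below, with a median of -0.12. That lean depended on scaling, since the median of all genes was -0.0079 with median ratio scaling and 0.035 with quantile normalization. All 7 core genes passed the filter of at least 1 FPKM in at least 2 libraries. At an adjusted p under 0.05 limma called 0 of the 7, against 0.0275% of all genes. At an unadjusted p under 0.05 there were 2 of the 7, Araf and Map2k1, against 5.34% of all genes. The groups did not overlap for Araf, where 4.34% of all genes had every FMC library higher, nor for Map2k1, where 8.22% of all genes had every FMC library lower. By unadjusted p Araf ranked 856 and Map2k1 898 among all genes tested. The erythroid markers also lay lower in every FMC library than in both FM libraries, and their part in these 2 differences was not tested. In this bulk RNA fewer cells of a type and less RNA per cell cannot be told apart.

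Nf1 itself was at 48.0, 58.1, 55.6 and 138 FPKM in FMC 1 to FMC 4, against 39.3 and 50.0 FPKM in FM 1 and FM 2 (log2 difference 0.61 ± 0.53 SE; limma, adjusted p = 0.993). The FMC libraries overlapped the FM libraries, and FMC 4 stood above them all. Since Cre is driven by the GFAP promoter, this microglial level says nothing of the deletion in other cells.

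**Figure D3:**
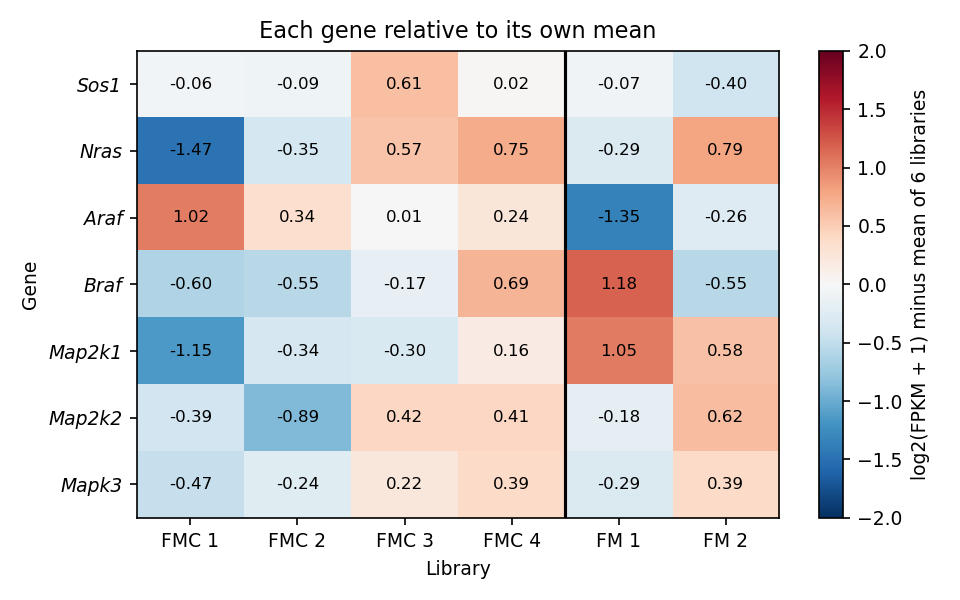
Level of each core gene in each library as log2(FPKM + 1) minus the mean of that gene over the 6 libraries, FMC left of FM. Nras, Map2k2 and Mapk3 are below their means in FMC 1, FMC 2 and FM 1 and above them in FMC 3, FMC 4 and FM 2.

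The core genes did not all move together across libraries. Nras, Map2k2 and Mapk3 followed a shared pattern, below their own means in FMC 1, FMC 2 and FM 1 and above them in FMC 3, FMC 4 and FM 2, a split that crosses genotype. Map2k2 and Mapk3 had the most similar profiles of the 21 pairs, with a root mean square difference of 0.30 (log2) between their profiles after each was centred on its own mean. Araf and Map2k1 had the least similar ones, at 1.40, followed by Araf and Braf at 1.30. FMC 1 was the lowest library for 4 of the 7 genes (Nras, Braf, Map2k1 and Mapk3) and the highest for Araf.

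Ranked by mean level over the 6 libraries, the order was Araf (76.8 FPKM), Mapk3 (74.4), Braf (61.6), Map2k1 (33.1), Map2k2 (29.9), Nras (11.6) and Sos1 (4.28). Araf, Mapk3 and Braf were left unordered, since the mean gaps between neighbours were smaller than their SD over libraries. The gaps were -0.08 ± 0.91 for Araf over Mapk3 and 0.41 ± 0.83 for Mapk3 over Braf (log2, SD, n = 6). Araf was above Mapk3 in 2 of 6 libraries, and Mapk3 was above Braf in 5 of 6. This SD is the spread over libraries and not the error of the mean gap. Braf was above Map2k1 by 0.86 ± 0.62 and in 5 of 6 libraries. The pair of MEK genes did not differ beyond the spread (0.07 ± 0.77). Map2k2 exceeded Nras in 6 of 6 libraries, by 1.40 ± 0.57, and Nras exceeded Sos1 in 5 of 6, by 1.10 ± 0.90. The kinases thus stood between the 84.3 and 94.5 percentiles of all genes tested by mean FPKM, Nras at the 65.6 and Sos1 at the 41.9 percentile.

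Ratios within a library, taken of FPKM + 1, do not depend on how that library is scaled apart from the added 1 FPKM. Map2k1 was 0.62, 1.54, 0.64 and 0.88 times Map2k2 in FMC 1 to FMC 4, against 2.45 and 1.02 times in FM 1 and FM 2. In FMC 1, FMC 3 and FMC 4 Map2k1 was the lower MEK gene, while FMC 2 lay between the FM libraries. The mean log2 ratio was -0.23 ± 0.61 in FMC (SD, n = 4) and 0.66 ± 0.89 in FM (SD, n = 2), a difference of -0.89. An exact two-sided permutation test, with 15 ways to place 4 of the 6 libraries in 1 group, gave p = 0.2, adjusted to 0.267 over the 2 ratios tested. No p below 0.0667 is possible in this design. Without FM 1 the difference in this log2 ratio was -0.26.

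Araf was 3.88, 2.33, 1.42 and 0.92 times Braf in FMC 1 to FMC 4, against 0.22 and 1.53 times in FM 1 and FM 2. Araf was the lower Raf gene in FMC 4 and FM 1 and the higher one elsewhere. The mean log2 ratio was 0.89 ± 0.89 in FMC (SD, n = 4) and -0.79 ± 1.99 in FM (SD, n = 2). The difference of 1.68 had an exact permutation p of 0.267 (two-sided, adjusted 0.267). It rested on FM 1, and without that library it was 0.28.

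**Figure D4:**
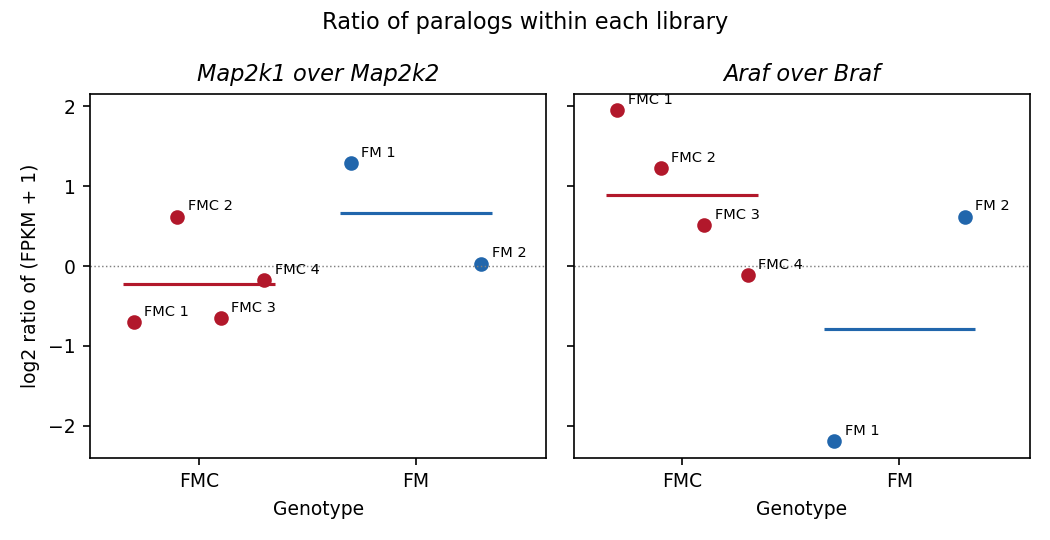
Log2 ratio of Map2k1 to Map2k2 and of Araf to Braf within each library, FMC left of FM, with a bar at each group mean and a dotted line where both genes are equal. FMC 2 lies between the FM libraries for the MEK genes, and FM 1 stands apart at -2.20 for the Raf genes.

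Sex was compared with genotype kept in the fit, males (FMC 2, FMC 3, FM 1) against females (FMC 1, FMC 4, FM 2). Limma called 0 of the 7 core genes and 0% of all genes at an adjusted p under 0.05. At an unadjusted p under 0.05 it had 0 of the 7 and 7.44% of all genes. Araf, the X-linked gene, had the largest difference, at 60.7 ± 31.1 FPKM in males and 92.8 ± 42.9 FPKM in females (SD, n = 3 each), or -0.67 ± 0.40 for males minus females on the log2 scale (SE; limma, adjusted p = 0.761). Adjusted p over the 7 ran from 0.761 to 0.998.

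The interaction of genotype with sex was tested with 1 FM library in each sex. Limma called 0 of the 7 and 0% of all genes at an adjusted p under 0.05, and at an unadjusted p under 0.05 it had 0 of the 7 and 3.77% of all genes. Braf had the largest term, since the FMC minus FM difference was -1.55 in males and 0.59 in females (interaction -2.14 ± 1.04 SE; limma, unadjusted p = 0.0936, adjusted p = 0.999). Both sides of that term rest on a single FM library.

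By a rule on profile likeness, the 2 genes most like each core gene over the 6 libraries were found among 8069 other genes (8070 for Sos1) with a mean of at least 5 FPKM. Likeness is again the root mean square difference of centred log2(FPKM + 1) profiles, given in log2 units, and with 6 points many genes lie close. Inpp5d, which encodes the phosphatase SHIP1 of blood and microglial cells, was the nearest to Mapk3 (0.058). For Map2k1 the nearest were Heatr6 (0.11) and Sbf1 (0.12). For Araf they were Tprkb (0.13) and Prmt7 (0.20), an arginine methyltransferase gene. Tprkb was at 33.2, 19.4, 16.9 and 17.7 FPKM in FMC 1 to FMC 4, against 7.11 and 12.2 FPKM in FM 1 and FM 2. For Sos1 they were Cyld (0.065), a deubiquitinase gene, and Commd8 (0.071). For Nras they were Ppp1r13b (0.077) and Ank (0.12), and for Braf Baz2b (0.18) and Adsl (0.21), an enzyme gene of purine synthesis. Map2k2 was nearest to Tsg101 (0.11), part of the endosomal sorting machinery, and Sh3glb1 (0.12).

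The genes around the core were read as 8 lists, for which limma called 0 members in either direction at an adjusted p under 0.05. Each is described by its counts and its median beside the median of -0.12 over all genes. Of other Ras-family GTPases 4 of 14 tested were above 0 and 10 below (median -0.32, 0 at an unadjusted p under 0.05). Ralb, which encodes a Ral GTPase, was at 26.9, 26.4, 15.1 and 36.2 FPKM in FMC 1 to FMC 4, against 36.9 and 85.2 FPKM in FM (adjusted p = 0.985). Of other exchange factors and adaptors 9 of 20 were above 0 (median -0.24, 1 at an unadjusted p under 0.05). In that list Rasgrf2, a Ras exchange factor gene, was at 17.4, 7.09, 26.3 and 27.1 FPKM in FMC, against 9.30 and 1.90 FPKM in FM (adjusted p = 0.934). Sos2, the paralog of Sos1, was at 29.8, 9.06, 7.15 and 11.3 FPKM in FMC, against 5.54 and 4.66 FPKM in FM (log2 difference 1.12 ± 0.70 SE, adjusted p = 0.993). Sos2 was thus higher in every FMC library, as were 4.34% of all genes tested, while Sos1 overlapped.

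Further Raf and ERK genes and their scaffolds had 10 of 23 above 0 (median -0.01, 0 at an unadjusted p under 0.05). Ksr1, a scaffold that holds Raf, MEK and ERK together, was at 3.61, 0.75, 6.21 and 9.47 FPKM in FMC, against 0.32 and 0.73 FPKM in FM (adjusted p = 0.993). It passed the filter of 1 FPKM only through FMC, where it was high. The enzymes of Ras lipid modification had 4 of 12 above 0 (median -0.21, 1 at an unadjusted p under 0.05). Lypla1, which removes palmitate from proteins, was at 8.44, 5.20, 7.42 and 7.64 FPKM in FMC, against 34.4 and 14.6 FPKM in FM (log2 difference -1.54 ± 0.60 SE, adjusted p = 0.808).

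Downstream of the core, the ERK substrates had 7 of 19 above 0 (median -0.24, 1 at an unadjusted p under 0.05). Rps6ka2, a ribosomal S6 kinase gene, was at 5.66, 2.15, 1.87 and 0.66 FPKM in FMC, against 18.3 and 10.6 FPKM in FM (log2 difference -2.24 ± 0.81 SE, adjusted p = 0.776). The ERK feedback genes, Dusp phosphatases and Sprouty-type inhibitors, had 2 of 11 above 0 and the lowest median of the 8 lists, -0.54 (1 at an unadjusted p under 0.05). Spry2 was listed at 0 in FMC 1 and was at 0.62, 0.09 and 0.31 FPKM in the other FMC libraries, against 3.97 and 1.04 FPKM in FM (adjusted p = 0.864). Spry2 is the feedback gene at an unadjusted p under 0.05. It passed the filter of 1 FPKM only through FM, where it was high, so its direction is no separate evidence. The Ras GTPase activators, Nf1 among them, had 5 of 9 above 0 and the highest median, 0.34 (0 at an unadjusted p under 0.05). Rasa4, one of these, was at 154, 24.97, 57.6 and 77.6 FPKM in FMC, against 29.3 and 44.4 FPKM in FM (adjusted p = 0.993). Dab2ip, also above 0, was at 0.27, 5.39, 7.97 and 0.28 FPKM in FMC, against 0.59 and 0.23 FPKM in FM. Only FMC 2 and FMC 3 brought Dab2ip past the filter of 1 FPKM, so its direction and its part in this median are no separate evidence. The parallel p38, JNK and ERK5 kinases had 4 of 11 above 0 (median -0.21, 0 at an unadjusted p under 0.05), and Map2k5, the kinase upstream of ERK5, was at 6.88, 5.90, 21.4 and 87.9 FPKM in FMC, against 42.8 and 38.5 FPKM in FM (adjusted p = 0.993).

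**Figure D5:**
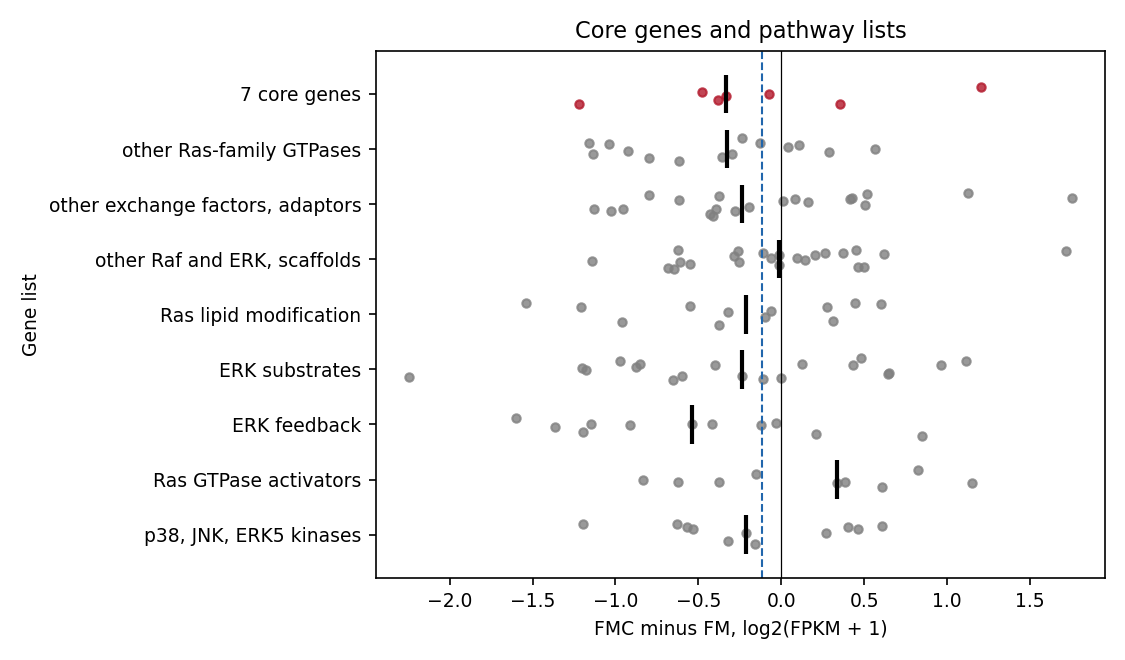
Difference between FMC and FM on the log2(FPKM + 1) scale for each tested gene of the core (red) and of the 8 lists around it (grey), with a black bar at each median and the median of all genes tested as a dashed line. The core genes run from -1.22 to 1.21, and no gene shown passed the test.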

How the data were processed

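RNA was extracted with TRIzol from Percoll-enriched, flow-sorted microglia, amplified with the Ovation RNA-Seq method and sequenced as paired ends, per the labels' protocols. The authors deposited FPKM values per Ensembl gene for the 6 libraries. Tools listed without roles in the submitters' processing notes are Cufflinks 2.0.2, TopHat2 2.0.4, Bowtie2 2.0.0 and CASAVA 1.8.2, with the build mm9. Locus starts in the table count from 0 and were converted to count from 1. Genes with no value in a library (426) were left out.

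A gene was tested if 2 or more libraries reached 1 FPKM (18208 genes). Values were taken as log2(FPKM + 1) and fitted with limma 3.58.1 (R 4.3.3, intensity trend, two-sided, Benjamini-Hochberg, threshold 0.05) on the whole table, after the script was tested on simulated data. The sex fit kept genotype. No counts were used, so precision is set by the number of libraries and their spread. Limma draws the spread of each gene toward that of genes of like level. The SE, interval and p-value of a gene thus rest in part on other genes. Sos1, for example, had a residual SD of 0.31 but an SE of 0.71. The spread between these libraries may be technical in part. Relative depth is the commonest ratio of low values (0.02 to 0.5 FPKM) to those of FMC 2. Leaving out an FM library leaves 1, whose spread is then taken to equal that of FMC.

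The members and lists were chosen with earlier results of these data known. The rule for named genes took the core genes, Nf1, the 2 most alike genes for each, and the genes of each list with the smallest p. The last was reduced, after values were seen, from 2 genes to 1 a list, and Sos2 was added as the paralog of Sos1. Dab2ip was added for how it passed the filter. Promoter sequence is from RefSeq (GRCm38.p6), another build than the table's. Alternatives were another pseudocount, other filters and scalings, no trend, sex, replicate and date blocks, and omission of each library.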

Additional observations from a re-analysis of the deposited data

Results flagged for a closer look

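Of 10 quantities examined within FMC (the 7 core genes, Nf1 and both ratios), 1 had a library set apart. Sos1 in FMC 3 was at 6.84 FPKM, against 3.85 to 4.22 FPKM in the other FMC libraries, and its gap to the nearest made up 0.848 of the range on the log2(FPKM + 1) scale, above Dixon's 95% critical value for 4 samples. Chance alone flags about 1 in 20 groups. Without FMC 3 the log2 difference of Sos1 between FMC and FM was 0.19.

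Mapk3 stood on opposite sides of its control in the sexes, by values that in females rest on FMC 1. Both male FMC libraries were above the male FM library, by 0.28 on average (log2). Both female FMC libraries were below the female FM library, by -0.43 on average, but FMC 4 (94.94 FPKM) and FM 2 (94.999 FPKM) were nearly equal. These averages differ by 0.71. The interaction term for Mapk3 was not past the threshold (limma, unadjusted p = 0.458, adjusted p = 0.999), and each sex has 1 FM library. Nras had averages further apart, 0.40 in males and -1.16 in females, but its male FMC libraries lay on both sides of FM 1, while both female ones were below FM 2 (limma interaction, unadjusted p = 0.400, adjusted p = 0.999).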

How the results depend on the processing

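In every alternative 0 of the 7 core genes passed, for genotype, sex and interaction. The log2 differences of the core genes between FMC and FM kept their sign in 97 of 104 recomputed values. That count includes values that could not turn, since the filters, the trend setting and sex as a covariate left the difference itself unchanged. Araf stayed higher (0.67 to 1.75) and Map2k1 lower (-1.56 to -0.97) in every alternative. Their groups did not overlap, so leaving out a library could not turn either sign and adds no separate support. The sign turned for Mapk3 with median ratio scaling (0.078), and with 1 library left out in some fits for Nras (-0.92 to 0.16), Braf (-1.34 to 0.39), Map2k2 (-0.73 to 0.068) and Mapk3 (-0.41 to 0.27). The filters and the trend setting also left each sex difference unchanged. With those values counted, for sex 71 of 83 kept their sign. It turned for Nras with median ratio scaling (0.14) and quantile normalization (0.13), for Mapk3 with quantile normalization (0.16), and with 1 library left out for Nras (-0.83 to 0.47), Braf (-0.41 to 0.88), Map2k1 (-0.076 to 0.68) and Mapk3 (-0.52 to 0.032). The median difference of all genes, -0.12, moved to -0.0079 with median ratio scaling and to 0.035 with quantile normalization. Sos1 fell under the filter of a mean of 5 FPKM, so it has no value there.

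Over all genes the 5 called between FMC and FM became 1 with a pseudocount of 0.1, 0 with no filter, 0 with a mean of at least 5 FPKM, 10 with no intensity trend, 0 with sex as a covariate and 3 with title dates as a block. With 1 library left out they ran from 0 to 8: without FMC 1 there were 4, without FMC 4 there were 8 and without any other there were 0. For sex the count of 0 ran from 0 to 4. The replicate block gave 0 genes, and Araf and Map2k1 differed by 1.48 and -1.56 in it. Same-numbered libraries deviated together by r = 0.03 (FM 1, FMC 1) and -0.06 (FM 2, FMC 2) across genes. The deviations of FM 1 and FM 2 from their own mean mirror each other, so these values cannot show whether the numbers pair libraries. Without 1 library the log2 difference of the Map2k1 to Map2k2 ratio ran from -1.52 to -0.26 and that of the Araf to Braf ratio from 0.28 to 3.09. The causes were not tested.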
